A study of Mus musculus with 6 samples.

Results

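Inhibitory and paired receptors of immune cells were read in mast cells sorted from fetal mouse skin after prenatal stress. The 10 genes were taken by symbol from the count tables: Cd200r1, Cd200r3, Cd200r4, Cd300a, Cd300lf, Siglecf, Siglece, Cd33, Milr1 and Lilrb4a, of 55809 gene rows in all. All 10 passed the filter on low counts and stood among the 16716 genes tested. Each library came from a pool of 4 C57BL6J fetuses of both sexes at embryonic day 18.5, with 3 pools of prenatally stressed offspring and 3 pools of control offspring. In the stress group, the dams were restrained in tubes under bright light in 3 daily sessions of 30 minutes, from embryonic day 13 to 18 in the treatment protocol and 13.5 to 18.5 in the design text, while the dams of the control group were not disturbed. All pools were digested to single cells at body temperature and sorted as CD45+ F4/80- CD64- CD117+ ST2+ cells. The labels name the pools biological replicates but give neither dams nor litters, so the p-values measure the spread between these pools.

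An inhibitory receptor of this kind carries an immunoreceptor tyrosine-based inhibitory motif (ITIM) in its cytoplasmic tail, and the phosphorylated motif recruits the phosphatases SHP-1, SHP-2 or SHIP1. Its paired relative has a similar ectodomain and a short tail, and signals through an adaptor such as DAP12 that carries an activating motif. In mast cells such receptors are known to set the threshold of activation through the high-affinity IgE receptor.

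The libraries held 51710555 to 57806119 counts in genes in the prenatal stress pools and 54616570 to 74735139 in the control pools, and the 10 receptors had 509 to 35972 counts per library. Mast cell identity was checked against 10 markers, all of which were detected. Among them Kit and Il1rl1 encode the CD117 and ST2 of the sort gate, so their detection is no separate check. The summed level of the 10 markers was 85048 to 102462 CPM (counts scaled to library size) in the prenatal stress pools and 58717 to 70958 CPM in the control pools, and 6 of them rose. Macrophage transcripts were present despite the gate, with none of 16 markers at 0. Their summed level was 4472 to 7955 CPM in the prenatal stress pools and 6604 to 7552 CPM in the control pools, and prenatal stress replicate 3 was the highest of the 6. Of these 16 markers, Cd68 rose and Cx3cr1 fell. Both basophil markers listed rose, by unlike amounts, with a log2 fold change of 0.50 for Mcpt8 and 1.36 for Itga2. All 4 melanocyte markers rose too. Their summed level was 26.3 to 64.6 CPM in the prenatal stress pools and 12.7 to 18.6 CPM in the control pools. Of all tested genes, 4.34% rose.

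The tails of the 10 receptors were compared by searching the coding sequence of each gene's longest coding transcript in GENCODE M21 (build GRCm38). The search asked for codons of the ITIM form, which are isoleucine, valine, leucine or serine, any residue, tyrosine, any 2 residues, and leucine or valine, on the 3′ side of the most hydrophobic stretch of 19 codons. Cd300a, Cd300lf and Lilrb4a held 2 such runs each and Siglecf and Siglece held 1 each. None was found in Cd200r1, Cd200r3, Cd200r4, Cd33 or Milr1. The matches are printed because they separate the receptors by tail, with the 6 codons of the pattern in capitals.
Cd300a, first: gaagtgGTGGAATATAGCACATTGgcatta
Cd300a, second: gaagagCTTCACTATTCATCCGTGgcattc
Cd300lf, first: ggtgatCTCTGTTATGCAGACCTGtccctg
Cd300lf, second: gaggagGTTTCATATGCCGCTCTGactttg
Siglecf: cctgaaCTCCACTATGCCTCCCTCtccttc
Siglece: gaagagATACATTATGCGACCCTCagcttt
Lilrb4a, first: cagggaATTGTCTACGCCCAGGTAaaaccc
Lilrb4a, second: caggatGTAACCTATGCCCAGTTGtgcatc
The central TAT or TAC of each run codes for the tyrosine. After the hydrophobic stretch, Cd200r4 had 13 codons with 0 tyrosines and Cd200r3 had 32 codons with 1 tyrosine, while Cd200r1 had 65 codons with 3 tyrosines. Cd33 had 135 codons after the stretch with 2 tyrosines, and Milr1 had 79 with 6, in neither case in the order searched. A match is a run of letters and shows no phosphorylation, and the lack of a match says only that this order is not in that transcript.

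Of the 10 receptors, 6 were higher and 1 was lower in mast cells of prenatally stressed fetuses, and 3 did not pass the test. Lilrb4a, Cd33, Cd200r3, Cd200r4, Cd300lf and Siglecf rose, Siglece fell, and Cd200r1, Cd300a and Milr1 did not pass. Calls were made at an adjusted p of 0.05 (Benjamini-Hochberg over all tested genes) in the quasi-likelihood test of edgeR, which called 1035 genes, 6.19% of those tested, 725 higher (4.34%) and 310 lower (1.85%). The median log2 fold change was 0.38 over the 10 receptors and -0.0039 over all tested genes. In 9 of the 10 the groups did not overlap, with the prenatal stress pools above the control pools in 7 and below in 2. Over all tested genes, 30.6% had groups that did not overlap, 16.0% with the prenatal stress pools above and 14.5% with them below. Leaving out prenatal stress replicate 3 gave 8 calls among the 10, where 15.4% of all genes were called. Fewer were left without prenatal stress replicate 1 (2 calls, 2.67% of all genes), prenatal stress replicate 2 (1 call, 1.14%), control replicate 1 (2 calls, 2.69%), control replicate 2 (1 call, 1.33%) or control replicate 3 (2 calls, 2.27%). In a bulk library, fewer cells of a type and less RNA per cell cannot be told apart, and this holds for every value below.

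**Figure D1:**
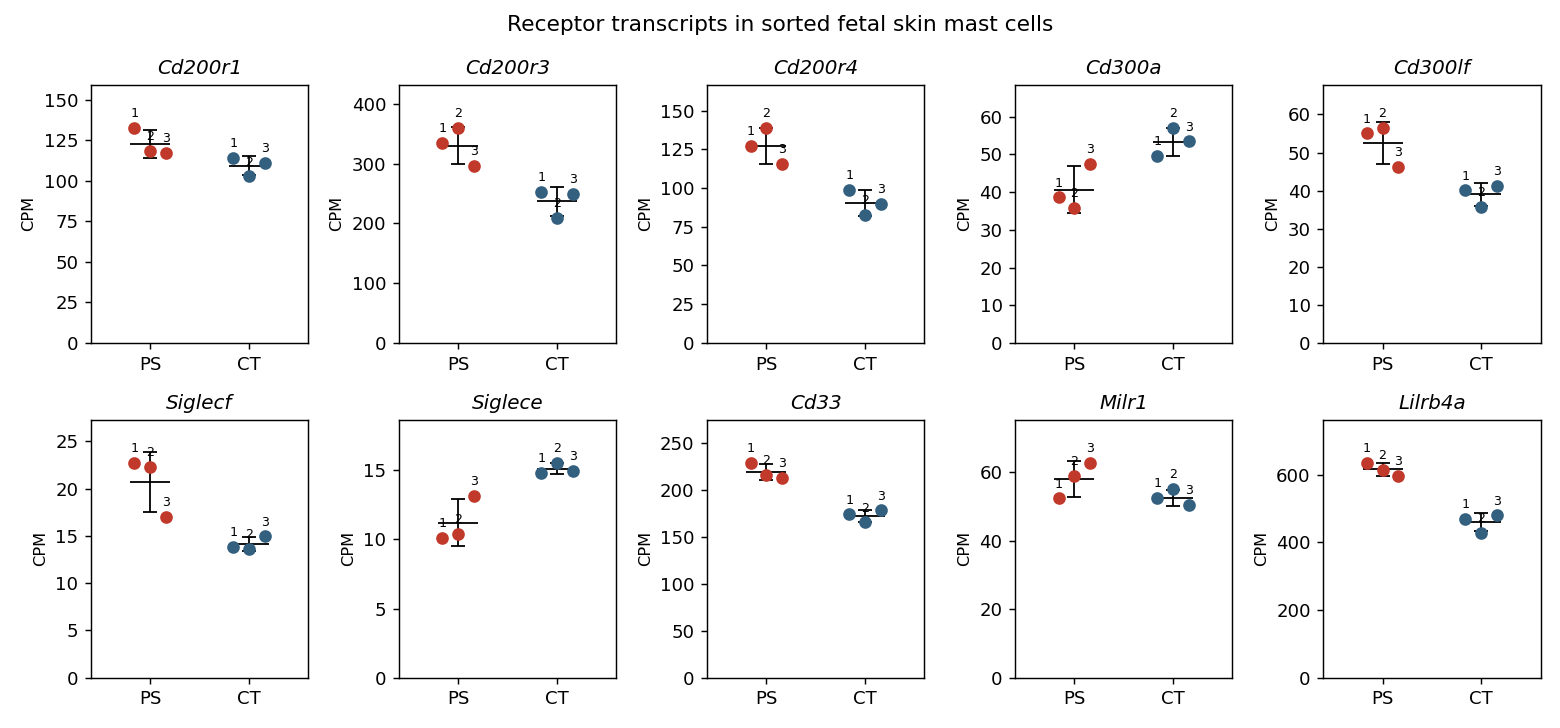
Level of each receptor in CPM on linear axes from 0, in the 3 prenatal stress pools (left) and 3 control pools (right), with the replicate number beside each point, the mean as a bar and the SD as whiskers. The groups overlapped in 1 of the 10, Milr1, and the prenatal stress pools lay below the control pools in Cd300a and Siglece.

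Lilrb4a encodes gp49B1, an Ig-like receptor known to restrain mast cell activation, and it was the most abundant of the 10 per kilobase of exon. It was at 636, 614.5 and 597 CPM in prenatal stress replicates 1, 2 and 3, against 468.5, 429 and 479.8 CPM in control replicates 1, 2 and 3. Every prenatal stress pool was above every control pool. The log2 fold change was 0.42 ± 0.06 (SE, n = 3 pools per group; edgeR, adjusted p = 0.0117), and the call held in each of the 6 fits without 1 library, with adjusted p between 0.00362 and 0.0483. Lilrb4a was the only one of the 10 whose call held in all 6.

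Its relative Lilrb4b encodes gp49A and had 43 codons after the hydrophobic stretch, without an ITIM run. The stretch itself held no lysine or arginine codon, and coupling to an adaptor was not tested. Lilrb4b was at 1914, 1840 and 1653 CPM in prenatal stress replicates 1, 2 and 3, against 1337, 1042 and 1284 CPM in control replicates 1, 2 and 3. It rose as well, with a log2 fold change of 0.56 ± 0.10 (SE, n = 3 pools per group; edgeR, adjusted p = 0.0202). This call was lost without prenatal stress replicate 1 (adjusted p = 0.0608), prenatal stress replicate 2 (0.0772) or control replicate 3 (0.0569). There were 3.01, 3.00 and 2.77 Lilrb4b counts per Lilrb4a count in prenatal stress replicates 1, 2 and 3, against 2.85, 2.43 and 2.68 in control replicates 1, 2 and 3. The ratio overlapped between the groups (two-sided exact permutation p = 0.2, where 0.1 is the smallest that 3 against 3 allows).

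The 2 genes are near copies, and their counts are uncertain to that extent. In GENCODE M21, 40.3% of the 75-base sequences of Lilrb4a transcripts were also in another gene, 16.3% in Lilrb4b and 32.2% in the gene model Gm49339, which overlaps it. Gm49339 had 0 to 2 counts per library. Of the 75-base sequences of Lilrb4b, 15.0% were in another gene. The 9 other receptors shared at most 2.45%, in Cd200r4.

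The CD200 receptors lie together on chromosome 16. Cd200r1 is the inhibitory receptor for CD200, which signals through Dok adaptors rather than an ITIM, and Cd200r3 and Cd200r4 are activating relatives that pair with DAP12. Both activating relatives rose, and Cd200r1 did not pass the test. Cd200r3 was at 334, 359.9 and 297 CPM in prenatal stress replicates 1, 2 and 3, against 253, 209 and 249 CPM in control replicates 1, 2 and 3. Cd200r4 was at 127, 139 and 116 CPM in prenatal stress replicates 1, 2 and 3, against 98.9, 82.6 and 89.7 CPM in control replicates 1, 2 and 3. For both genes every prenatal stress pool was above every control pool, prenatal stress replicate 2 was the highest and control replicate 2 the lowest.

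The log2 fold change was 0.48 ± 0.09 for Cd200r3 (SE, n = 3 pools per group; edgeR, adjusted p = 0.0251) and 0.49 ± 0.09 for Cd200r4 (adjusted p = 0.0179). The Cd200r3 call held in the fit without prenatal stress replicate 3 and was lost without any other library, with adjusted p between 0.0501 and 0.0974. That of Cd200r4 held without prenatal stress replicate 3 or control replicate 1, and without the other 4 libraries in turn its adjusted p was between 0.0562 and 0.0799. Cd200r1 was at 132.5, 118 and 117 CPM in prenatal stress replicates 1, 2 and 3, against 114, 103 and 111 CPM in control replicates 1, 2 and 3. Its groups did not overlap, and its log2 fold change was 0.17 ± 0.07 (SE, n = 3 pools per group; edgeR, adjusted p = 0.172). Cd200r3 is known from basophils as well as mast cells, and the basophil protease gene Mcpt8 averaged 24.3 ± 1.88 CPM in the prenatal stress pools and 17.2 ± 1.43 CPM in the control pools (SD, n = 3 pools each) and rose (edgeR, adjusted p = 0.0169). The part of basophil transcripts in the Cd200r3 result was not tested.

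Ratios of counts within a library do not depend on the scaling, and these were chosen after the values were seen. There were 2.52, 3.04 and 2.53 Cd200r3 counts per Cd200r1 count in prenatal stress replicates 1, 2 and 3, against 2.21, 2.04 and 2.24 in control replicates 1, 2 and 3. For Cd200r4 per Cd200r1 the ratio was 0.961, 1.17 and 0.986 in prenatal stress replicates 1, 2 and 3, against 0.867, 0.805 and 0.807 in control replicates 1, 2 and 3. Neither ratio overlapped between the groups (two-sided exact permutation p = 0.1 each, the smallest that 3 against 3 allows). Another gene of the cluster, Cd200r2, a further activating relative, was at 1.15, 0.909 and 0.558 CPM in prenatal stress replicates 1, 2 and 3, against 0.378, 0.306 and 0.299 CPM in control replicates 1, 2 and 3. This low gene rose, with a log2 fold change of 1.39 ± 0.32 (SE, n = 3 pools per group; edgeR, adjusted p = 0.0408). Its call held without prenatal stress replicate 3 and was lost without each of the other libraries, up to an adjusted p of 0.16, and also with limma-voom (0.0543) and the macrophage covariate (0.119). The ligand gene Cd200 was at 1.01, 1.73 and 0.594 CPM in prenatal stress replicates 1, 2 and 3, against 1.13, 1.00 and 0.581 CPM in control replicates 1, 2 and 3, and did not pass.

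Promoters of 8 of the 10 receptors were in the RefSeq table (build GRCm38.p6), all but those of Cd200r1 and Lilrb4a, and the 250 bases before the start were compared over the 28 pairs. The longest identical run, of 32 bases, was between Cd200r3 and Cd200r4. The next, of 16 bases, was between Siglecf and Cd33, and no other pair shared more than 10. A link between shared runs and the direction of change was not tested. The stretches around both runs are shown, with the shared bases in capitals.
Cd200r3, chr16:44943532-44943607, plus strand: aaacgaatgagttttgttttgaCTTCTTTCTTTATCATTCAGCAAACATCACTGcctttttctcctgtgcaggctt
Cd200r4, chr16:44820656-44820727, plus strand: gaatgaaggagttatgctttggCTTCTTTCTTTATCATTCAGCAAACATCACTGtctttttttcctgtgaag
Siglecf, chr7:43351292-43351340, plus strand: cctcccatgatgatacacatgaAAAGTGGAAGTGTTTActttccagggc
Cd33, chr7:43533291-43533350, minus strand: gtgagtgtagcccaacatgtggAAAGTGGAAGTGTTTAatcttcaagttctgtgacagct
The shared run began 124 bases before the start in Cd200r3 and 50 before it in Cd200r4, within a local alignment of 107 columns of which 93 were identical (86.9%). That of the lectins began 27 bases before the start in Siglecf and 157 in Cd33. Each run was in 2 of 32851 promoters of the table (0.00609%), those of its own pair. The runs are letters in common between neighbouring genes of a family and show no binding.

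A search of the same 250 bases on both strands found GAGGAAG, the core of sites for the myeloid factor PU.1, in 6 of the 8 promoters. These were Cd200r3, Cd300a, Cd300lf, Siglecf, Siglece and Cd33, and 10.6% of all promoters held it. AGATAA, the only form of the site for GATA factors that was searched, was in Cd200r3 alone and in 9.99% of all promoters. The E-box CATGTG was in Siglecf and Cd33 and in 12.3% of all promoters. TGTTCT, part of the site of the glucocorticoid receptor, was in Cd300lf and in 16.1% of all promoters, and neither CACGTG nor the AP-1 site TGANTCA was in any of the 8, against 6.02% and 6.75% of all promoters. No 2 matches overlapped in these promoters. Promoters with GAGGAAG belonged to genes that rose, to Siglece, which fell, and to Cd300a, which did not pass.

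The receptors of the CD300 family lie on chromosome 11. Both carry ITIMs, Cd300a as a receptor for phosphatidylserine and phosphatidylethanolamine and Cd300lf as a receptor known to bind ceramide. Cd300lf rose, while Cd300a was lower in every prenatal stress pool without passing the test. Cd300lf was at 55.0, 56.5 and 46.2 CPM in prenatal stress replicates 1, 2 and 3, against 40.04, 35.7 and 41.3 CPM in control replicates 1, 2 and 3. Cd300a was at 38.6, 35.7 and 47.6 CPM in prenatal stress replicates 1, 2 and 3, against 49.6, 57.0 and 53.5 CPM in control replicates 1, 2 and 3. In both genes prenatal stress replicate 3 was the pool of its group nearest to the controls.

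The log2 fold change was 0.43 ± 0.09 for Cd300lf (SE, n = 3 pools per group; edgeR, adjusted p = 0.0298) and -0.39 ± 0.10 for Cd300a (adjusted p = 0.0599). The call of Cd300lf held without prenatal stress replicate 3 and was lost without any other library, with adjusted p between 0.0669 and 0.133. Without prenatal stress replicate 3, Cd300a passed, at a log2 fold change of -0.53 and an adjusted p of 0.00246. There were 1.43, 1.58 and 0.971 Cd300lf counts per Cd300a count in prenatal stress replicates 1, 2 and 3, against 0.807, 0.626 and 0.773 in control replicates 1, 2 and 3. The groups did not overlap in this ratio, which follows from the levels of the 2 genes.

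**Figure D2:**
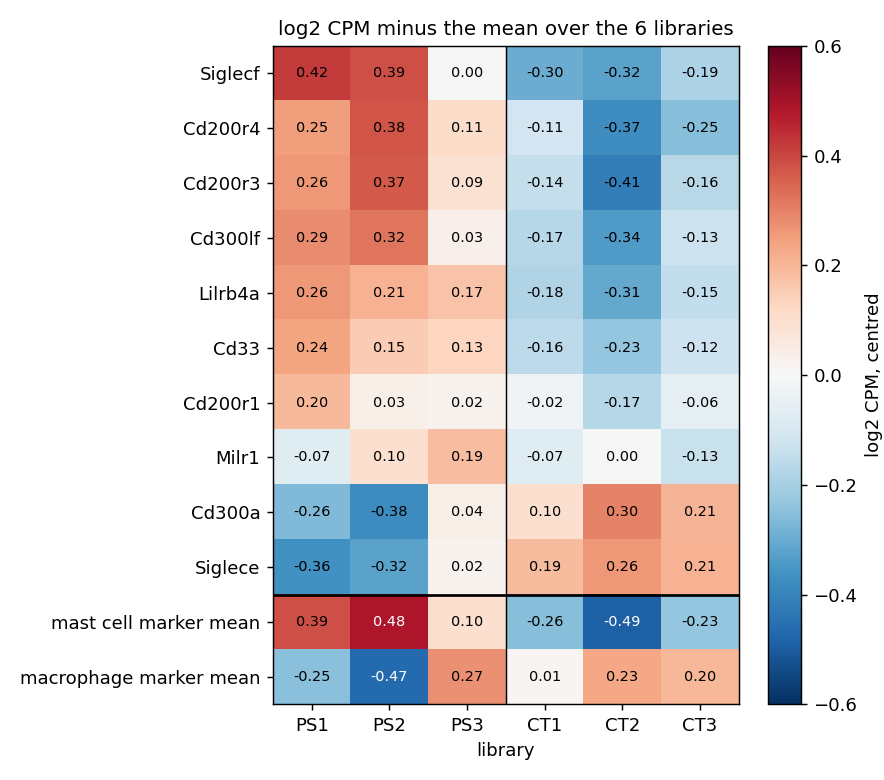
Centred log2 CPM of each receptor in each library, as the difference from its mean over the 6 libraries, with the prenatal stress pools left of the control pools and the mean of the macrophage markers and of the mast cell markers below. Cd300a and Siglece were low in prenatal stress replicates 1 and 2 and close to their own mean in replicate 3, where the macrophage marker mean was highest.

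Siglecf, Siglece and Cd33 encode lectins on chromosome 7 that bind sialic acid on cell surfaces, and Siglec-F is best known from eosinophils. Siglecf and Cd33 rose and Siglece fell. Siglecf was at 22.7, 22.3 and 17.0 CPM in prenatal stress replicates 1, 2 and 3, against 13.8, 13.6 and 14.9 CPM in control replicates 1, 2 and 3. Siglece was at 10.1, 10.4 and 13.2 CPM in prenatal stress replicates 1, 2 and 3, against 14.8, 15.6 and 15.0 CPM in control replicates 1, 2 and 3. Cd33 was at 229, 215 and 212 CPM in prenatal stress replicates 1, 2 and 3, against 174, 165 and 178 CPM in control replicates 1, 2 and 3. The groups did not overlap in any of the 3, and for Siglecf and Siglece prenatal stress replicate 3 lay nearest to the controls.

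By edgeR, the log2 fold change was 0.55 ± 0.11 for Siglecf (adjusted p = 0.0283), -0.43 ± 0.11 for Siglece (adjusted p = 0.0496) and 0.34 ± 0.06 for Cd33 (adjusted p = 0.0157; SE, n = 3 pools per group). The calls of Siglecf and Siglece held without prenatal stress replicate 3 and were lost without each of the other libraries, with adjusted p between 0.0691 and 0.132 for Siglecf and between 0.109 and 0.184 for Siglece. That of Cd33 was lost without prenatal stress replicate 2 (0.0614), control replicate 1 (0.0538) or control replicate 2 (0.0662). There were 2.25, 2.15 and 1.29 Siglecf counts per Siglece count in prenatal stress replicates 1, 2 and 3, against 0.935, 0.875 and 0.998 in control replicates 1, 2 and 3. That the groups did not overlap in this ratio follows from the levels of the 2 genes. The eosinophil granule genes Epx and Prg2 were too low to be tested. Epx was at 0, 0.0742 and 0.0180 CPM in prenatal stress replicates 1, 2 and 3, against 0, 0.323 and 0 CPM in control replicates 1, 2 and 3. Prg2 reached 1.09 CPM in prenatal stress replicate 2 and 1.62 CPM in control replicate 2. The other eosinophil markers, Il5ra, Prg3 and Ccr3, were tested and did not pass. Il5ra, which encodes the interleukin 5 receptor, was at 42.2, 39.2 and 31.9 CPM in prenatal stress replicates 1, 2 and 3, against 33.0, 26.5 and 31.1 CPM in control replicates 1, 2 and 3 (log2 fold change 0.32 ± 0.11, edgeR, adjusted p = 0.129). Prg3 averaged 4.90 ± 0.737 CPM in the prenatal stress pools and 5.31 ± 0.195 CPM in the control pools, and Ccr3 0.877 ± 0.425 CPM in the prenatal stress pools and 1.36 ± 0.391 CPM in the control pools (SD, n = 3 pools each). The part of eosinophil transcripts in the Siglecf result was not tested.

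Milr1 encodes Allergin-1, a receptor on chromosome 11 known to restrain IgE-driven activation of mast cells. It was at 52.4, 59.0 and 62.9 CPM in prenatal stress replicates 1, 2 and 3, against 52.5, 55.1 and 50.4 CPM in control replicates 1, 2 and 3. The groups overlapped, and the log2 fold change was 0.14 ± 0.07 (SE, n = 3 pools per group; edgeR, adjusted p = 0.272). Milr1 did not pass without any 1 library either, with adjusted p between 0.12 and 0.518. A gene on the opposite strand overlaps 5.34% of its exon length, and whether counting used the strand is not given.

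**Figure D3:**
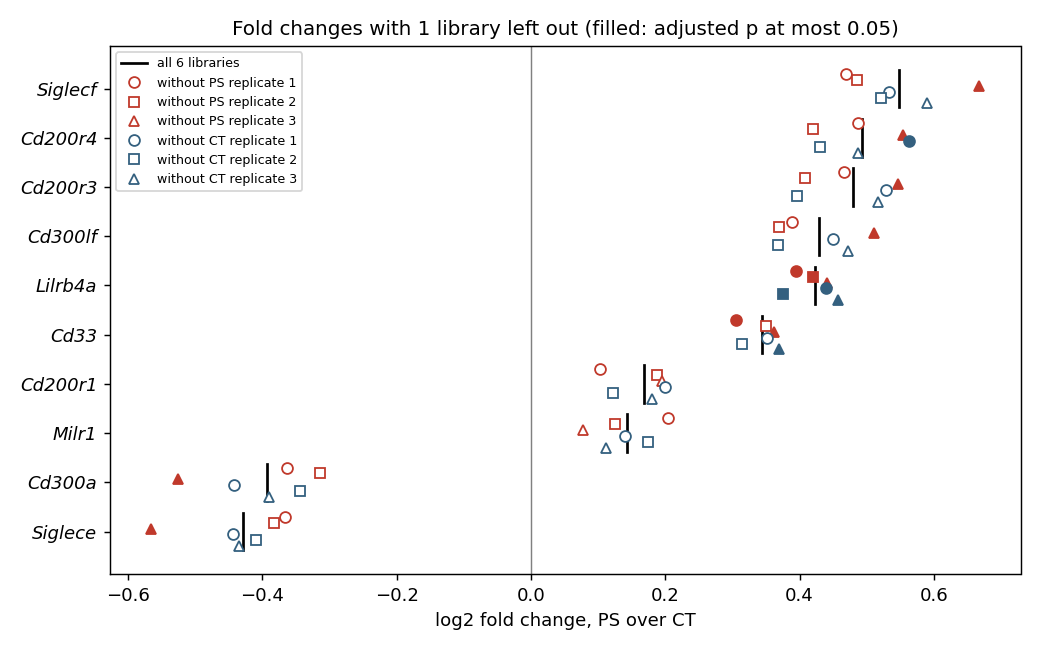
Log2 fold change of prenatal stress over control for each receptor with all 6 libraries and without each library in turn, with filled markers where the adjusted p was at most 0.05. Lilrb4a stayed past the threshold in all 6 fits, and the values of Cd300a and Siglece were farthest from 0 without prenatal stress replicate 3.

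The mean of the macrophage markers, Cd300a and Siglece were each lower in prenatal stress replicates 1 and 2 than in replicate 3. The mean log2 CPM of the 16 markers was 7.66, 7.44 and 8.18 in prenatal stress replicates 1, 2 and 3, against 7.92, 8.14 and 8.11 in control replicates 1, 2 and 3. The marker mean of prenatal stress replicate 3 was thus above every control pool, while Cd300a and Siglece in that pool were below every control pool. Single markers differed in that pool. Mrc1, Cd68, Lyve1, Cd163 and Pf4 were above every control pool, Cx3cr1 and Mertk were below every control pool, and the other markers lay within the range of the controls. Ratios of counts to each of the 16 markers were taken within a library, a comparison added after the values were seen. For Siglece the ratio overlapped between the groups for 13 markers and was lower in every prenatal stress pool for 3, Fcgr1, Cd68 and Cd163. For Cd300a it overlapped for 12 markers and was lower in every prenatal stress pool for 4, the same 3 and Maf.

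With the marker mean as a covariate, a fit that called 4.30% of all genes, the fold changes of the receptors that rose and of those that were lower both moved towards 0. The log2 fold change was -0.30 ± 0.09 for Siglece (edgeR, adjusted p = 0.0903) and -0.23 ± 0.06 for Cd300a (adjusted p = 0.0655). Siglece, at an edgeR adjusted p of 0.0496 without the covariate, no longer passed. Cd300a, at 0.0599 without it, passed in neither fit. The log2 fold change was 0.39 for Siglecf (adjusted p = 0.0485), 0.31 for Cd300lf (0.0455), 0.36 for Cd200r3 (0.0386), 0.37 for Cd200r4 (0.0164), 0.32 for Cd33 (0.0282) and 0.40 for Lilrb4a (0.0201), and these 6 kept their calls. The part of macrophage transcripts in these results was not tested.

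The receptors that rose were also set against the 10 mast cell markers, of which 6 rose, with a median log2 fold change of 0.45 over the 10. Against Kit, whose log2 fold change of 0.23 was the smallest of the 10 and did not pass (edgeR, adjusted p = 0.187), the ratio of counts was higher in every prenatal stress pool for Lilrb4a, Cd200r3, Cd200r4, Cd300lf and Siglecf and overlapped for Cd33. Against most other markers it was not higher. The ratio was higher in every prenatal stress pool for 1 of the 10 markers for Lilrb4a, 2 for Cd200r3, Cd200r4 and Cd300lf, 3 for Siglecf and 0 for Cd33. It was lower in every prenatal stress pool for 2 markers for Cd200r3, Cd200r4 and Siglecf and for 3 for Lilrb4a, Cd300lf and Cd33, among them Mcpt4 and Fcer1a in each case, and overlapped for the rest. Siglece and Cd300a were lower relative to all 10 markers in every prenatal stress pool. All 10 markers had a positive log2 fold change, so this follows largely from the levels of the genes. The part of the mast cell markers in these results was not tested.

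**Figure D4:**
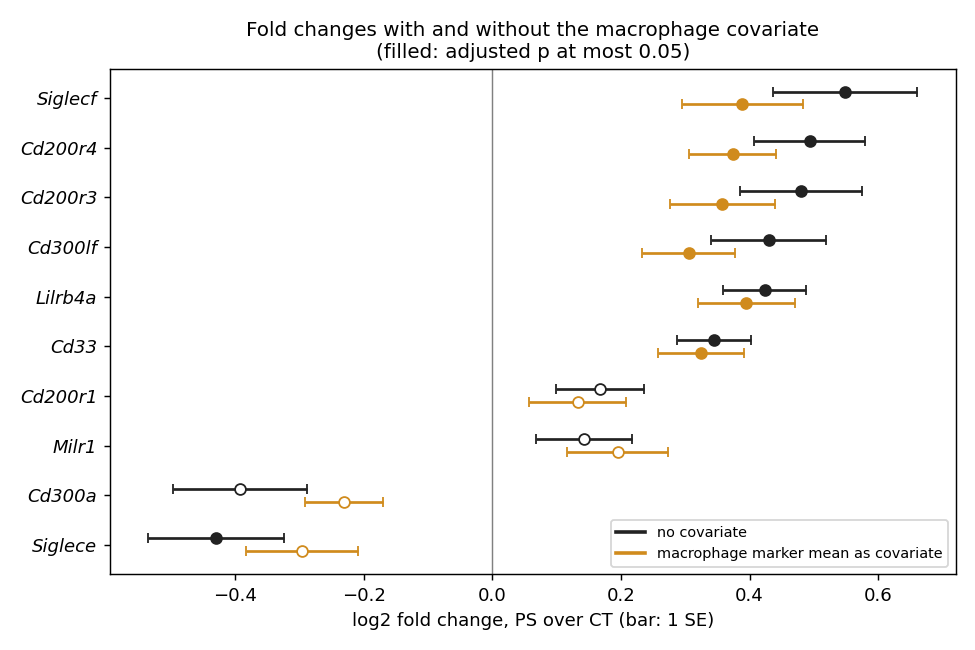
Log2 fold change of prenatal stress over control with its SE for the 10 receptors, without a covariate and with the macrophage marker mean as a covariate, with filled markers where the adjusted p was at most 0.05. With the covariate Siglece stood at -0.30, Cd300a at -0.23, Siglecf at 0.39, Cd300lf at 0.31 and Cd200r3 at 0.36, nearer to 0 in each case, and Siglece lost its call.

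Levels of different genes were compared per length, as CPM per kilobase of annotated exon in GENCODE M21. Lilrb4a came first with 118 ± 3.70 CPM per kilobase in the prenatal stress pools and 87.8 ± 5.08 in the control pools (mean ± SD, n = 3 pools each). Cd200r4 followed with 62.2 ± 5.67 in the prenatal stress pools and 44.2 ± 4.00 in the control pools, and Cd200r3 with 55.2 ± 5.29 in the prenatal stress pools and 39.6 ± 4.02 in the control pools. These neighbours overlapped in both groups and changed places when the longest transcript gave the length. Cd200r1, the inhibitory receptor of that family, was below both at 36.7 ± 2.53 in the prenatal stress pools and 32.6 ± 1.77 in the control pools.

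Cd33 averaged 28.2 ± 1.13 CPM per kilobase in the prenatal stress pools and 22.2 ± 0.840 in the control pools. Milr1 averaged 23.5 ± 2.13 in the prenatal stress pools and 21.3 ± 0.950 in the control pools, apart from Cd33 in the prenatal stress pools but overlapping it in the control pools. The other 4 were the lowest in both groups. Cd300lf averaged 10.2 ± 1.08 CPM per kilobase in the prenatal stress pools and 7.58 ± 0.573 in the control pools, and Cd300a 8.58 ± 1.30 in the prenatal stress pools and 11.3 ± 0.785 in the control pools. Siglecf averaged 7.41 ± 1.14 in the prenatal stress pools and 5.07 ± 0.255 in the control pools, and Siglece 6.07 ± 0.919 in the prenatal stress pools and 8.18 ± 0.212 in the control pools. In the prenatal stress pools the order was Cd300lf, Cd300a, Siglecf and Siglece, and each overlapped its neighbour. In the control pools it was Cd300a, Siglece, Cd300lf and Siglecf, and only Siglece and Cd300lf overlapped. By longest transcript these 2 changed places in the control pools, with means of 9.93 for Cd300lf and 8.18 for Siglece.

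**Figure D5:**
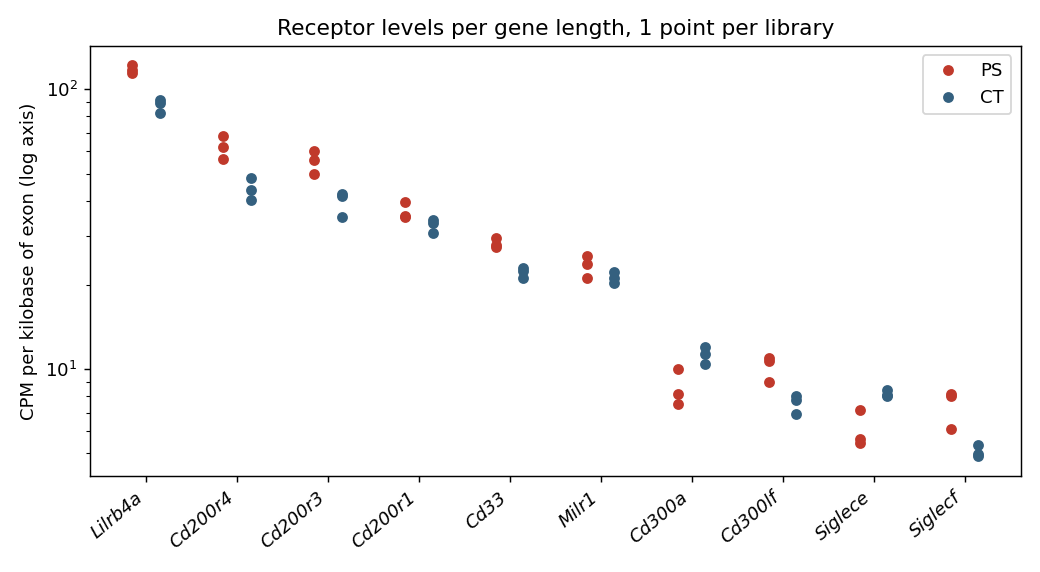
Level of each receptor in CPM per kilobase of exon on a log axis, with points for the pools, prenatal stress left of control. Lilrb4a was highest in both groups, and Cd300a, Cd300lf, Siglecf and Siglece were the 4 lowest.

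Genes of like pattern were sought among 9605 protein-coding genes, as those with the smallest mean absolute difference in centred log2 CPM over the 6 libraries. For Cd200r3 they were Otulinl (0.0131) and Il1rl1 (0.0176), the gene of the ST2 receptor used in the sort. For Lilrb4a they were Pik3r1 (0.0185), a regulatory subunit of phosphoinositide 3-kinase, and Ifrd1 (0.0252). Siglecf was nearest to Nfkbia (0.0502), an inhibitor of NF-kappaB, and Tmem154 (0.0519), which were the widest differences among the 10. For Cd300a the nearest were Psmb9 (0.0187) and Macir (0.0191), for Cd300lf Borcs5 (0.0170) and Cyth3 (0.0221), and for Siglece Tbc1d9 (0.0267) and Ank1 (0.0323). Cd33 was nearest to Decr2 (0.0192) and Ago4 (0.0230), Cd200r1 to Adcy7 (0.0147) and Trim26 (0.0162), Cd200r4 to Dmd (0.0255) and Cmip (0.0258), and Milr1 to Rc3h1 (0.0230) and Ubl5 (0.0254).

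Of 22 other inhibitory receptors tested, of 24 listed, 4 rose, 2 fell and 16 did not pass, with a median log2 fold change of -0.21. Havcr2, which encodes TIM-3, was at 67.0, 78.3 and 73.7 CPM in prenatal stress replicates 1, 2 and 3, against 36.8, 25.4 and 33.1 CPM in control replicates 1, 2 and 3. Its log2 fold change of 1.20 ± 0.12 (SE, n = 3 pools per group; edgeR, adjusted p = 0.00268) was above those of all 10 receptors. Cd244a, which encodes the SLAM-family receptor 2B4, rose by 0.81 ± 0.08 on the log2 scale (adjusted p = 0.0017), and Clec12b, a C-type lectin with an ITIM, by 0.67 ± 0.10 (adjusted p = 0.00946). These 3 calls held in every fit without 1 library.

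Pirb, which encodes paired Ig-like receptor B, rose by 0.37 ± 0.06 (edgeR, adjusted p = 0.0179), with 26.9% of its 75-base sequences also in other genes. Its call was lost without prenatal stress replicate 2, control replicate 1, control replicate 2 or control replicate 3, up to an adjusted p of 0.0866. Lair1, a collagen receptor with ITIMs, was at 10.9, 10.5 and 11.4 CPM in prenatal stress replicates 1, 2 and 3, against 14.5, 14.6 and 15.96 CPM in control replicates 1, 2 and 3. It fell by 0.46 on the log2 scale (edgeR, adjusted p = 0.0152), a call lost without prenatal stress replicate 2, control replicate 2 or control replicate 3 (up to 0.0658). Vsir, which encodes VISTA and was named after its values were seen, had a log2 fold change of -0.38 ± 0.09 (edgeR, adjusted p = 0.0443). Its adjusted p was 0.0512 with the macrophage covariate, 0.00275 without prenatal stress replicate 3 and between 0.0622 and 0.175 without each of the other libraries. The most expressed of the list, Sirpa, a receptor for CD47, averaged 453 ± 56.5 CPM in the prenatal stress pools and 529 ± 13.8 CPM in the control pools (SD, n = 3 pools each) and did not pass (edgeR, adjusted p = 0.156). The 6 calls in this list came from a fit that called 6.19% of all genes. They counted 11 without prenatal stress replicate 3 (15.4% of all genes), 5 without replicate 1 (2.67%) and 3 without replicate 2 (1.14%) of that group. Without control replicates 1, 2 and 3 they counted 4, 3 and 3 (2.69%, 1.33% and 2.27% of all genes).

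Among 23 activating or paired relatives tested, of 28 listed, 2 rose, 1 fell and 20 did not pass, with a median log2 fold change of 0.02. Those that rose were Lilrb4b and Cd200r2, described above. Siglech, a DAP12-coupled lectin known from plasmacytoid dendritic cells, was at 2.28, 2.13 and 3.35 CPM in prenatal stress replicates 1, 2 and 3, against 4.36, 5.61 and 3.96 CPM in control replicates 1, 2 and 3. It fell by 0.84 on the log2 scale (edgeR, adjusted p = 0.0469). That call held without prenatal stress replicate 3 and was lost without each of the other libraries, up to an adjusted p of 0.185, and with the macrophage covariate (0.0861). The 3 calls of this list counted 6 without prenatal stress replicate 3 (15.4% of all genes). They counted 1 without control replicate 1 (2.69%) or control replicate 2 (1.33%). None was left without prenatal stress replicate 1 (2.67%), prenatal stress replicate 2 (1.14%) or control replicate 3 (2.27%).

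Of the 3 adaptors of activating receptors tested, Hcst rose and Tyrobp and Fcer1g did not pass. Hcst, which encodes DAP10, was at 9.70, 9.57 and 9.39 CPM in prenatal stress replicates 1, 2 and 3, against 8.05, 6.43 and 6.87 CPM in control replicates 1, 2 and 3. Its log2 fold change was 0.42 ± 0.10 (edgeR, adjusted p = 0.0452), a call that held without prenatal stress replicate 3 or control replicate 1 and was lost without the other 4 libraries, up to 0.173. It was lost too with the macrophage covariate (adjusted p = 0.0962) and with library totals (0.0701). Tyrobp, which encodes DAP12, the partner of the products of Cd200r3 and Cd200r4, averaged 628 ± 21.6 CPM in the prenatal stress pools and 557 ± 18.7 CPM in the control pools (SD, n = 3 pools each; edgeR, adjusted p = 0.115).

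None of the 11 genes listed for ITIM signalling passed by edgeR. Of these 11, 5 had an unadjusted p under 0.05, as did 4150 of the 16716 genes tested. Plain limma-voom called 0, DESeq2 called 2 of them and 12.4% of all genes, and limma-voom with sample weights 4 of them and 9.52% of all genes. Other edgeR fits called 4, all lower, with library totals (12.5% of all genes), 4, of which 2 were lower, with no filter (6.60%), 1 with upper-quartile factors (6.48%) and 1 with the stricter filter (9.50%). Without prenatal stress replicate 3, 4 passed, in a fit that called 15.4% of all genes. The most expressed, Inpp5d, which encodes SHIP1, averaged 852 ± 65.2 CPM in the prenatal stress pools and 694 ± 59.2 CPM in the control pools (SD, n = 3 pools each; edgeR, adjusted p = 0.0747). Of 14 genes of ligands and sialic acid synthesis, 2 rose and 12 did not pass, with a median log2 fold change of 0.01. That fit called 6.19% of all genes. The calls in this list counted 1, 0 and 3 without prenatal stress replicates 1, 2 and 3 (2.67%, 1.14% and 15.4% of all genes). Without control replicates 1, 2 and 3 they counted 2, 2 and 1 (2.69%, 1.33% and 2.27%). The 2 that rose were the sialyltransferases St3gal4, with a log2 fold change of 0.47 ± 0.08 (edgeR, adjusted p = 0.0139), and St3gal3, with 0.53 ± 0.11 (adjusted p = 0.0335). For St3gal4, 14.1% of the exon length is overlapped on the opposite strand and 7.21% of the 75-base sequences are also in another gene. St3gal4 lost its call without prenatal stress replicate 2 (0.0634), and St3gal3 without prenatal stress replicate 1, prenatal stress replicate 2 or control replicate 3, up to 0.124, and with the macrophage covariate (0.0601). The most expressed gene of this list, St6gal1, averaged 150.0 ± 7.18 CPM in the prenatal stress pools and 154 ± 8.09 CPM in the control pools (SD, n = 3 pools each) and did not pass.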

How the data were processed

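Polyadenylated RNA of 6 sorted mast cell pools was sequenced from stranded, paired-end libraries, per the labels' protocols. The authors deposited 1 table of raw counts per gene symbol for each library, not normalized. Per the submitters' processing notes, the tools were FastQC, STAR 2.4 and HTSeq 0.9.1. Neither of the builds in those notes, GRCm39 or mm10, has a stated role, so coordinates printed here are those of the RefSeq table, not of the counts. Strand setting, annotation release and filters: not given in the sources used here. The 5 rows that name no gene were left out of library sizes and tests, and of all reads tallied 79.7% to 81.4% were in genes and 8.49% to 9.00% had no unique alignment.

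Genes were filtered with filterByExpr (minimum count 10), scaled with TMM factors and tested with edgeR 4.0.16's quasi-likelihood test (R 4.3.3), of stress against control without covariates, adjusted by Benjamini-Hochberg over 16716 genes. The common biological coefficient of variation came to 10.4%. All CPM were computed on TMM-scaled library sizes. The procedure was tested on simulated data. Every pair of replicates differed by more than sampling noise.

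The members and lists were chosen with earlier results of these data known, and lists are described by counts and medians without a test. Named were all 10 receptors, up to 5 called genes of each list with the smallest p, the most expressed gene of each list, and the 2 genes of likest pattern for each receptor with a mean of at least 5 CPM. Cd200, Fcer1g, Gm49339 and the marker genes Cd68, Cx3cr1, Itga2, Cd163, Maf, Lyve1, Mertk, Pf4, Mcpt4, Fcer1a, Il5ra, Prg3 and Ccr3 were named besides, after their values were seen. Gene models and coding sequences came from GENCODE M21 (GRCm38) and promoters from RefSeq (GRCm38.p6). Coding sequences were searched after the first 40 codons for the hydrophobic stretch, and promoters were aligned with Biopython 1.88. As alternatives, the fit was repeated with RLE or upper-quartile factors, library totals, no filter, a stricter filter (10 counts in 3 libraries and a mean of 1 CPM), DESeq2 1.42.0, limma-voom (limma 3.58.1) without or with sample weights, a replicate block, the macrophage marker mean as a covariate, and each library left out in turn.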

Additional observations from a re-analysis of the deposited data

How the results depend on the processing

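No receptor changed direction under any alternative. The genes called, 1035, counted 2085 with library totals (553 higher and 1532 lower, against 725 and 310; that scaling put the median of all genes at -0.12 on the log2 scale), 1933 with no filter, 1876 with DESeq2, 1591 with voom sample weights, 622 with the replicate block, and 196 to 2647 without 1 library. The receptors called, 7, counted 3 with the replicate block, a fit that called 3.72% of all genes and in which Cd200r3, Cd300lf, Siglecf and Siglece missed the threshold (adjusted p 0.053, 0.0571, 0.0522 and 0.064), and 1 to 8 without 1 library. The lowest were without prenatal stress replicate 2 or control replicate 2 and the highest without prenatal stress replicate 3. Siglech and Hcst also missed the threshold with the block (adjusted p 0.0776 and 0.0654). The labels name nothing that links same-numbered pools beyond the number. Their deviations correlated at 0.095, -0.019 and 0.068, and not every pool correlated best with its own number. With 3 pools per group, these values cannot tell whether same-numbered pools were handled together. By longest transcript, 6 of 10 receptors kept their place in the order of levels. Cd300a passed with library totals (adjusted p = 0.0292), no filter (0.00323), DESeq2 (0.00853) and voom sample weights (0.0232).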
